A study of Mus musculus with 47 samples.

Results

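The keratins of simple and of stratified (squamous) epithelium were followed through the lungs of mice that had been given ragweed pollen protein or PBS. The 9 genes, of 16365 genes with a probe set of their own on the arrays, were 5 stratified keratins, Krt4, Krt13, Krt5, Krt14 and Krt15, and 4 simple keratins, Krt7, Krt8, Krt18 and Krt19. They were chosen by name with earlier results of these data known, and those results included Krt4, Krt19 and genes of squamous epithelium in the comparisons of ragweed with PBS and of the PBS groups with each other. Values in those comparisons are therefore a description, with the share of all probe sets that were called given beside the counts. Total RNA of the lung was measured on Affymetrix murine U74 arrays. Mice of all groups were sensitized on days 0 and 3 and challenged by the intratracheal route on days 10 and 17. The lungs date from 24 h or 72 h past the second challenge. The 4 groups were ragweed mice of 72 h and of 24 h and PBS mice of 72 h and of 24 h, with 2 samples each, lettered 1a and 1b. Ragweed mice were sensitized with ragweed pollen protein in alum and challenged with the protein, and PBS mice received PBS at both steps. The labels name alum for ragweed mice alone, and give no strain, sex or age. Nothing states that 1a and 1b came from different mice, so the p-values cover the spread of these samples only, and it may be technical.

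Keratins are the intermediate filament proteins of epithelial cells, and a filament forms only from a type I and a type II keratin together. Krt8 (type II) with Krt18 (type I) is the pair of single-layered epithelium, which lines airways and alveoli, and Krt7 (type II) and Krt19 (type I) join it in airway and duct cells and in the mesothelium. In stratified epithelium Krt5 (type II) with Krt14 and Krt15 (type I) fills the basal layer, where the basal cells of the large airways also use them, and Krt4 (type II) with Krt13 (type I) marks the upper layers of linings that do not cornify, such as that of the oesophagus. In the RefSeq gene table (assembly GRCm38.p6) the type II genes and Krt18 lie on chromosome 15, and Krt13, Krt14, Krt15 and Krt19 on chromosome 11.

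The set comprises arrays A, B and C, and each exists as a first version and as version 2. On these the 9 genes had 33 probe sets counted per array, with 24 distinct identifiers. Values are linear intensities that compare samples for a given probe set, not one gene with another. The fit used the first-version A arrays, on which all 4 groups were measured, restricted to the 9977 probe sets that version 2 A shares, together with version 2 of B and C. Intensities under a floor (the 40th percentile of the table, 291.6 on A, 356.4 on B and 244.7 on C) were raised to it, and probe sets above it on at least 2 arrays were tested. This left 25250 probe sets, among them 11 of the 14 keratin probe sets on those 3 tables, which covered 8 of the 9 genes. Of the markers that define lung, all 8 of alveolar type I cells and 8 of 9 of alveolar type II cells were tested. Differences are given as log2 differences ± standard error from limma, with n = 2 samples per group, and a probe set was called at an adjusted p under 0.05. Few arrays were run, which limits precision, and standard errors had a median of 0.23 on A, 0.32 on B and 0.45 on C.

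Krt4 was about as high in both ragweed groups as in PBS lungs of 24 h, and PBS lungs of 72 h stood apart above all others. Its main probe set (100421_at, array A) read 9924 and 8073 in ragweed lungs at 72 h, 8497 and 9479 in ragweed lungs at 24 h, 24100 and 25340 in PBS lungs at 72 h, and 8121 and 6703 in PBS lungs at 24 h. Both PBS samples of 72 h lay above the other 6, and the ragweed groups overlapped. The group means, taken on the log scale, were 8951 at 72 h and 8975 at 24 h in ragweed lungs. In PBS lungs they were 24710 at 72 h and 7378 at 24 h, with the PBS 72 h mean by far the furthest from its neighbour. Ragweed lungs of 24 h lay above PBS lungs of 24 h without overlap, by 0.28 ± 0.13 on the log2 scale, and the difference was not called. A second Krt4 probe set (167079_f_at, version 2 C) had the same shape: 2583 and 2325 in ragweed lungs at 72 h, 2384 and 2650 in ragweed lungs at 24 h, 5434 and 5592 in PBS lungs at 72 h, and 2367 and 2620 in PBS lungs at 24 h. The first-version C probe set of the same source sequence (139965_f_at), which was not in the fit, read 994.6 and 913.6 in ragweed lungs at 72 h, 975.5 and 947.5 in ragweed lungs at 24 h, 1784 and 2184 in PBS lungs at 72 h, and 650.4 and 1008 in PBS lungs at 24 h, after scaling alone.

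Krt13, the type I partner of Krt4, was also highest in PBS lungs at 72 h by its tested probe sets. Its promoter is shown because it is the one of the pair in the RefSeq promoter table, which held 6 of the 9 genes, with 250 bases before and 50 after the start site. Of the 2 Krt13 windows there, the one at the 5′ end of the gene is printed. Capitals mark a match to TGANTCA, the AP-1 motif, whose first base lies at -196 from the start site. The Krt13 window not printed held the motif with first bases at -183 and -34. Of 32851 promoters of the same length, 7.81% held that motif on either strand. The sequence is from GRCm38.p6, chr11:100121517-100121816, minus strand, written 5′ to 3′.
Krt13: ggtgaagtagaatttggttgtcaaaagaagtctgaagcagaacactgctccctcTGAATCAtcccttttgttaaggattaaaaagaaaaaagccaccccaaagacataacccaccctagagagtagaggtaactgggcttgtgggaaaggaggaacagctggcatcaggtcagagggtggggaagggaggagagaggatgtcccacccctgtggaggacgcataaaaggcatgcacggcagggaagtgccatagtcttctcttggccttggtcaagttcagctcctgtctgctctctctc

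The main probe set of Krt13 (100109_s_at, array A) read 1435 and 1362 in ragweed lungs at 72 h, 1096 and 999 in ragweed lungs at 24 h, 3683 and 3708 in PBS lungs at 72 h, and 1245 and 1211 in PBS lungs at 24 h. No 2 groups overlapped on this probe set, and the order from high to low was PBS 72 h, ragweed 72 h, PBS 24 h and ragweed 24 h. The probe set 164542_f_at (version 2 B) gave another order in its lower groups. It read 1915 and 1485 in ragweed lungs at 24 h and 2670 and 2879 in PBS lungs at 72 h, and all 4 samples of ragweed at 72 h and PBS at 24 h were under its floor of 356.4. The PBS 72 h samples were again the highest, but ragweed at 24 h, the lowest group by 100109_s_at, was the second highest here. The suffix f in an Affymetrix identifier marks probes that can be shared within a gene family, so how far 164542_f_at reads Krt13 alone is uncertain. The first-version A probe set 102439_f_at, not in the fit, lay near the floor and did not share the pattern. After scaling alone it read 286.7 and 188 in PBS lungs at 72 h, against 492 and 251.7 in PBS lungs at 24 h. In ragweed lungs it read 126.7 and 169.6 at 72 h and 346.1 and 341.5 at 24 h. On version 2 A, 162322_r_at was above the floor on 1 of 6 arrays, of PBS at 24 h.

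The basal layer keratins gave little signal. Krt5 (94317_at) was under the floor on all 8 first-version A arrays and on all 6 version 2 A arrays. Krt14 was under the floor on array A (101041_at), and its one tested probe set (169045_i_at, version 2 C) was above the floor in 5 of 8 samples, highest at 639 in 1 ragweed sample of 24 h. No difference of Krt14 between groups was detectable, as the groups overlapped in each of the 4 comparisons. Krt15 (164618_f_at, version 2 B) was above the floor in all 8 samples, with 1355 and 1370 in ragweed lungs at 72 h, 1305 and 1742 in ragweed lungs at 24 h, 1561 and 2161 in PBS lungs at 72 h, and 1138 and 1002 in PBS lungs at 24 h. The PBS 24 h samples were the lowest, the ragweed groups overlapped, and ragweed at 24 h overlapped PBS at 72 h. Krt15 was under the floor on array A in both versions (99017_at and 160852_at), so its level rests on 1 probe set of the f kind. Trp63 and Ngfr, the other basal cell markers, were at the floor in 4 of 8 and 3 of 8 samples.

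**Figure D1:**
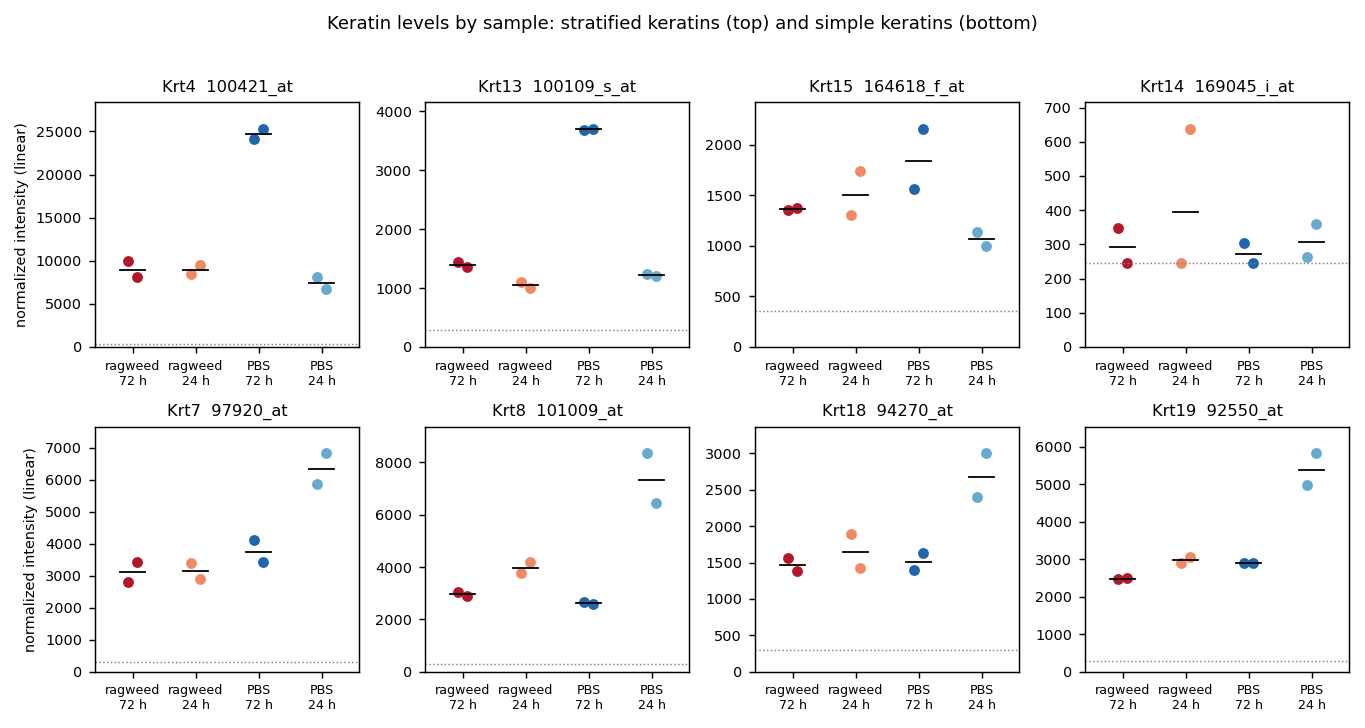
Normalized linear intensity (vertical axis, from 0, with its own scale in each panel) of the main probe set of each keratin in ragweed 72 h, ragweed 24 h, PBS 72 h and PBS 24 h lungs. Points are samples, black lines the means on the log scale, and dotted lines the floor. Krt4 and Krt13 stand highest in PBS lungs at 72 h (24100 and 25340 for Krt4), and the 4 simple keratins of the bottom row in PBS lungs at 24 h (8347 and 6445 for Krt8).

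The simple keratins had another pattern, in which PBS lungs of 24 h stood above the other 3 groups. The promoters of Krt7, Krt8 and Krt18, the simple keratins in the promoter table, are shown because these genes varied together. Capitals mark matches, on either strand, to GGGCGG (the GC box), GCCNNNGGC (an AP-2 motif) and TATAAA (the TATA box). Of the 32851 promoters, 35.7% held the GC box, 16.6% the AP-2 motif and 13.6% the TATA box. All are from GRCm38.p6, written 5′ to 3′: Krt7 from chr15:101412153-101412452 (plus strand), Krt8 from chr15:102004293-102004592 (minus strand) and Krt18 from chr15:102027966-102028265 (plus strand).
Krt7: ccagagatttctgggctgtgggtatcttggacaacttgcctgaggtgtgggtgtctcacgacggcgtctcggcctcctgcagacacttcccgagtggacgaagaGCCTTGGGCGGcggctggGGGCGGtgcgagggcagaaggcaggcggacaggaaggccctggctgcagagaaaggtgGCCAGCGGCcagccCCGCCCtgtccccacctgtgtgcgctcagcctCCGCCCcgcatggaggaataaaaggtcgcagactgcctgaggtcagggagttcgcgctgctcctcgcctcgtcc
Krt8: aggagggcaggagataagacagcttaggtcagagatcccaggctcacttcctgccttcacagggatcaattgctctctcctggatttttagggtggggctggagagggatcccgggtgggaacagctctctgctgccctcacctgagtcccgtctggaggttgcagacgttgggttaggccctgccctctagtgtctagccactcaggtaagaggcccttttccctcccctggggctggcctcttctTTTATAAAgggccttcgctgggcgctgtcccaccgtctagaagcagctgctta
Krt18: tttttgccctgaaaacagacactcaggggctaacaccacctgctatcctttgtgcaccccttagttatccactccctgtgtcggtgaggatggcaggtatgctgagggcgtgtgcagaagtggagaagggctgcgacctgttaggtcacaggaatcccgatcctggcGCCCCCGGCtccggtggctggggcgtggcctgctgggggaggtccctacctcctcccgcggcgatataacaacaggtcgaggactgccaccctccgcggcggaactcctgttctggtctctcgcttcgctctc
The Krt7 window held 4 GC boxes and 2 AP-2 matches, the first of which overlaps a GC box. The Krt8 window held TATAAA on both strands, overlapping, with first bases at -3 and -1, and the Krt18 window held 1 AP-2 match at -83. No motif of the 4 searched was found in all 3 windows, and none of the 3 held the AP-1 motif.

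Krt8 (101009_at, array A) read 3035 and 2891 in ragweed lungs at 72 h, 3773 and 4191 in ragweed lungs at 24 h, 2649 and 2600 in PBS lungs at 72 h, and 8347 and 6445 in PBS lungs at 24 h. No 2 groups overlapped. Its partner Krt18 (94270_at, array A) read 1562 and 1388 in ragweed lungs at 72 h, 1891 and 1420 in ragweed lungs at 24 h, 1391 and 1625 in PBS lungs at 72 h, and 2396 and 3001 in PBS lungs at 24 h. For Krt18 the PBS 24 h samples lay above all others and the other 3 groups overlapped.

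Krt7 (97920_at, array A) read 2814 and 3436 in ragweed lungs at 72 h, 3391 and 2898 in ragweed lungs at 24 h, 4110 and 3413 in PBS lungs at 72 h, and 5867 and 6819 in PBS lungs at 24 h. Here too both PBS 24 h samples were the highest, and the 2 ragweed groups overlapped. Krt19 (92550_at, array A) read 2459 and 2497 in ragweed lungs at 72 h, 2891 and 3063 in ragweed lungs at 24 h, 2910 and 2907 in PBS lungs at 72 h, and 4985 and 5821 in PBS lungs at 24 h. PBS at 24 h was the highest and ragweed at 72 h the lowest, with ragweed at 24 h and PBS at 72 h overlapping between them. The second Krt19 probe set (102121_f_at, array A) was near its floor throughout: 312 and 308 in ragweed lungs at 72 h and 692 and 568 in PBS lungs at 24 h, with ragweed at 24 h and PBS at 72 h under the floor. Further probe sets of Krt7 (164287_i_at, version 2 B) and Krt18 (162191_at, version 2 A) were under the floor on every array.

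Among the main probe sets the genes of a class varied in the same direction over the 8 samples, Krt15 less closely than the others. Pearson's r of log2 intensity was 0.95 between Krt4 and Krt13, 0.93 between Krt7 and Krt19, 0.91 between Krt18 and Krt19, 0.89 between Krt8 and Krt19, 0.85 between Krt7 and Krt18, 0.83 between Krt8 and Krt18 and 0.75 between Krt7 and Krt8. Krt15 had 0.77 with Krt4 and 0.60 with Krt13. Krt14, at the floor in 3 samples, was left out. Between the classes all coefficients were below 0, from -0.72 for Krt15 with Krt18 to -0.07 for Krt13 with Krt7. These values describe 8 samples that fall in 4 groups, and most of the probe sets share the same arrays, so no p is given.

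At 24 h the simple keratins were lower in ragweed than in PBS lungs, and the stratified keratins had differences of both signs. Krt7 differed by -1.01 ± 0.15, Krt8 by -0.88 ± 0.13, Krt19 by -0.86 ± 0.11 and Krt18 by -0.71 ± 0.19. The median of the 4 was -0.87, or 0.547-fold, against 0 for all probe sets tested. Both ragweed samples lay below both PBS samples for all 4 genes, a separation that 17.8% of all probe sets had. Krt19 was the only one of the 8 main probe sets called, which is read against the 0.0198% of probe sets called lower and the 0.21% called higher in this comparison. Among stratified keratins, Krt4 differed by 0.28 ± 0.13, Krt13 by -0.23 ± 0.13, Krt15 by 0.50 ± 0.27 and Krt14 by 0.36 ± 0.47. The sign of Krt14 depended on the floor, at -0.30 with a floor at the 20th percentile and -0.35 with none. The Krt13 probe set 164542_f_at went against the main one: it was at least 4.73-fold higher in ragweed lungs at 24 h (log2 difference at least 2.24) and was called, as its PBS samples were under the floor. Leaving out any 1 of the 8 samples ended the call of Krt19, whose difference then ran from -0.97 to -0.74. Set against PBS lungs of 72 h in place of 24 h, a comparison added after the data were seen, Krt19 in ragweed lungs at 24 h differed by 0.03 and Krt18 by 0.12, Krt8 by 0.60 ± 0.13 and Krt4 by -1.46 ± 0.13. With PBS of both times as reference, Krt19 differed by -0.41 ± 0.09 and was not called. By that reference the main probe set of Krt13 differed by -1.03 ± 0.11 and was called.

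At 72 h the pattern was the other way round: Krt4 and Krt13 were lower in ragweed than in PBS lungs, and the simple keratins lay within 0.27 of 0. Krt4 differed by -1.47 ± 0.13 (0.362-fold) and Krt13 by -1.40 ± 0.13 (0.378-fold). Both were called, 2 of 8 genes, where 0.194% of all probe sets were called lower and 0.333% higher. The other Krt4 probe set differed by -1.17 ± 0.20, and the Krt13 probe set of array B by at least 2.96 in the same direction, as its ragweed samples were under the floor. Krt15 differed by -0.43 ± 0.27 and Krt14 by 0.10 ± 0.47. The simple keratins ran from -0.27 for Krt7 to 0.17 for Krt8, with a median of -0.13. Both calls held when a 24 h sample was left out and ended when any 1 of the 4 samples of 72 h was, with differences then between -1.61 and -1.32 for Krt4 and between -1.44 and -1.36 for Krt13. With array A read on version 2 in place of the first version, Krt4 differed by -0.70 ± 0.13 and was not called, while Krt13 differed by -1.94 ± 0.16 and was called. Against PBS lungs of 24 h in place of 72 h, Krt4 in ragweed lungs at 72 h differed by 0.28 and Krt13 by 0.19, the opposite sign. With PBS of both times as reference, Krt4 differed by -0.59 ± 0.12 and Krt13 by -0.61 ± 0.11 by their main probe sets, and neither was called. By that reference Krt19 differed by -0.68 ± 0.09 and was called.

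**Figure D2:**
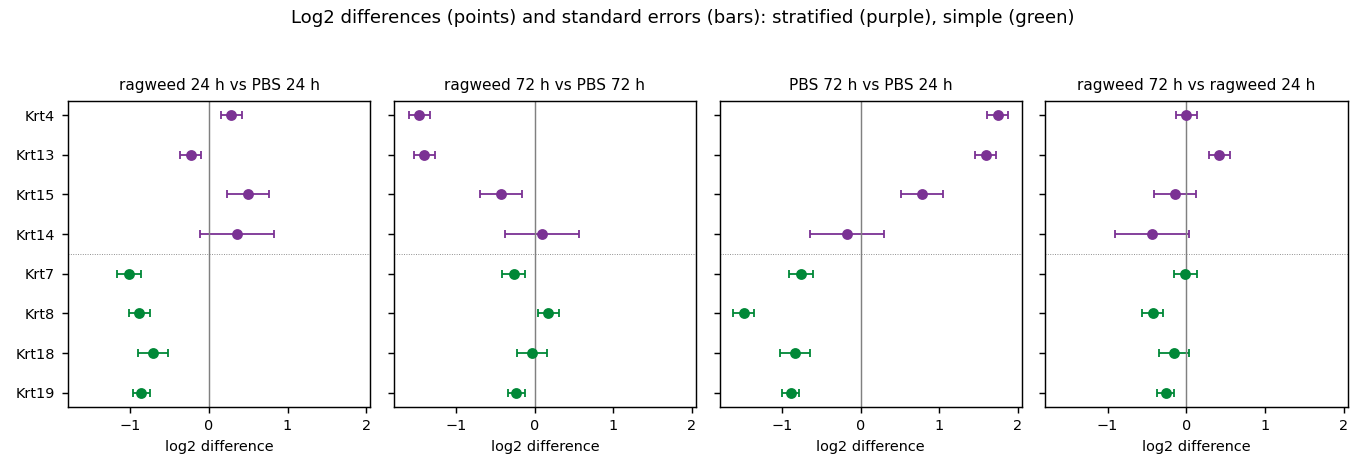
Log2 differences (horizontal axis, points) with standard errors (bars) of the main probe sets of stratified keratins (purple) and simple keratins (green) in 4 comparisons, 2 samples per group. Simple keratins lie at -0.71 to -1.01 in ragweed against PBS at 24 h, Krt4 and Krt13 at -1.47 and -1.40 in ragweed against PBS at 72 h, and both classes move, in opposite directions, between the PBS groups.

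The PBS groups differed from each other in both classes. In PBS lungs at 72 h, against PBS lungs at 24 h, Krt4 was 3.35-fold (log2 1.74 ± 0.13) and Krt13 3.01-fold (1.59 ± 0.13) higher, and Krt15 differed by 0.78 ± 0.27 and Krt14 by -0.17 ± 0.47. All 4 simple keratins were lower: Krt8 by -1.48 ± 0.13, Krt19 by -0.89 ± 0.11, Krt18 by -0.83 ± 0.19 and Krt7 by -0.76 ± 0.15, with a median of -0.86 against 0 for all probe sets tested. Krt4 and Krt13 were called higher, where 0.186% of probe sets were, and Krt8 and Krt19 lower, where 0.095% were. The Krt13 probe set 164542_f_at was at least 2.96 higher on the log2 scale and was called. The calls depended on single samples. All 4 ended without either PBS 72 h sample or without the 1a sample of ragweed at 72 h. Without the 1b sample of ragweed at 72 h, or the 1b sample of ragweed at 24 h, Krt4 and Krt13 were called. Krt4 alone was called without the 1a sample of PBS at 24 h, Krt8 alone without its 1b sample, and Krt4, Krt13 and Krt8 without the 1a sample of ragweed at 24 h. On version 2 of array A, Krt13, Krt8 and Krt19 were called and Krt4, at 0.82 ± 0.13, was not. The comparisons of ragweed with PBS and this one share the PBS samples, so their values are given side by side and are not independent of each other.

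The comparison of the ragweed groups of the 2 times was not among the results known when the genes were chosen. Its differences follow by construction from those of the comparisons above, some of which were known, so it is not independent of them. No keratin stood out in it by its main probe set. None of the 8 main probe sets was called at 72 h against 24 h by limma with Benjamini-Hochberg adjustment, where 0.305% of all 25250 probe sets were called. At an unadjusted p under 0.05, 3 of the 8 passed (Krt8, Krt13 and Krt19), as did 2680 of all probe sets. Krt4 differed by 0.00 ± 0.13 (adjusted p = 1) and Krt13 by 0.42 ± 0.13 (adjusted p = 0.301), with both later samples of Krt13 above both earlier ones. Krt8 differed by -0.42 ± 0.13 (adjusted p = 0.299), Krt19 by -0.26 ± 0.11 (adjusted p = 0.437), Krt18 by -0.15 ± 0.19 (adjusted p = 0.814) and Krt7 by -0.01 ± 0.15 (adjusted p = 1). For Krt15 the difference was -0.15 ± 0.27 (adjusted p = 0.889) and for Krt14 -0.44 ± 0.47 (adjusted p = 0.778). The median of the simple keratins was -0.21, that of the stratified ones -0.08 and that of all probe sets 0. The Krt13 probe set 164542_f_at went against 100109_s_at: its level in ragweed lungs at 72 h was at least 4.73-fold lower than at 24 h (log2 difference at least 2.24 in size, adjusted p = 0.0245), where 0.0673% of probe sets were called lower at 72 h.

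The ragweed effect at 72 h minus that at 24 h had opposite signs in the classes, leaving Krt14 aside. It was -1.75 ± 0.19 for Krt4, -1.17 ± 0.19 for Krt13 and below 0 for Krt15 as well, and above 0 for all 4 simple keratins, from 0.62 ± 0.15 for Krt19 to 1.06 ± 0.19 for Krt8. For Krt14 it was -0.27 ± 0.66, a sign that turned with the floor, to 0.45 with one at the 20th percentile and 1.03 with none. Krt4 was called among the main probe sets, where 0.0356% of all probe sets were, and its call ended when any 1 of the 8 samples was left out, without a filter on low values, and without the mean-variance trend of the fit. By construction this quantity equals the difference between the ragweed groups minus the difference between the PBS groups, both given above.

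**Figure D3:**
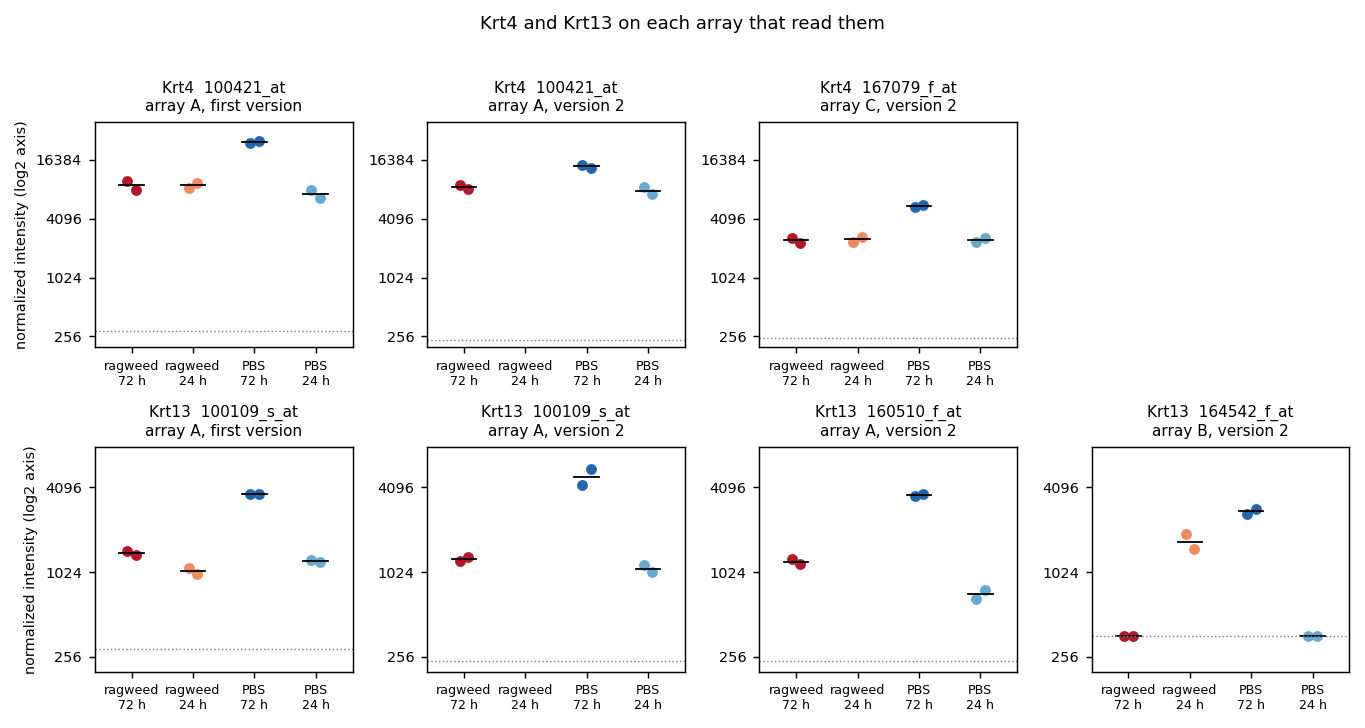
Normalized intensity (vertical axis, log2 scale) of selected Krt4 (top row) and Krt13 (bottom row) probe sets. Columns are ragweed 72 h, ragweed 24 h, PBS 72 h and PBS 24 h lungs. Points are samples, black lines the means on the log scale and dotted lines the floor. Version 2 A has no ragweed 24 h arrays among those analysed here, so that column is blank. PBS lungs at 72 h are the highest in all 7 panels shown. Probe sets not shown include 139965_f_at, also highest there, 161647_f_at, whose groups overlapped, and 102439_f_at, which did not share the pattern. Ragweed at 24 h stands above ragweed at 72 h in the panel of 164542_f_at alone by more than the spread of its samples.

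Version 2 A arrays, which the authors had scaled alike for every group, gave a second reading of ragweed at 72 h and both PBS groups. Krt4 (100421_at) read 9105 and 8152 in ragweed lungs at 72 h, 14540 and 13500 in PBS lungs at 72 h, and 8627 and 7267 in PBS lungs at 24 h. PBS at 72 h was again the highest, at 1.77-fold the PBS 24 h level against 3.35-fold on the first version. Krt13 (100109_s_at) read 1234 and 1301 in ragweed lungs at 72 h, 4298 and 5526 in PBS lungs at 72 h, and 1146 and 1019 in PBS lungs at 24 h. A probe set found only on version 2 A (160510_f_at) read 1274 and 1159 in ragweed lungs at 72 h, 3563 and 3708 in PBS lungs at 72 h, and 661.9 and 759.6 in PBS lungs at 24 h, which is 5.13-fold between the PBS groups. The first-version probe set made from the same source sequence (100108_at) read between 21.8 and 109.9 in the 8 samples. A further Krt4 probe set (161647_f_at) differed between the PBS groups by 0.57 ± 0.43 and its groups overlapped.

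Of the simple keratins, Krt8 and Krt19 were again highest in PBS lungs at 24 h on version 2 A, and the PBS groups lay closer together for Krt18 and Krt7 than on the first version. Krt8 read 3439 and 2909 in ragweed lungs at 72 h, 3529 and 3290 in PBS lungs at 72 h, and 8970 and 8274 in PBS lungs at 24 h. Krt19 read 3485 and 3378 in ragweed lungs at 72 h, 3891 and 3974 in PBS lungs at 72 h, and 7105 and 7731 in PBS lungs at 24 h. The PBS 72 h level was 0.396-fold the PBS 24 h level for Krt8 and 0.531-fold for Krt19. Krt18 read 2157 and 2076 in ragweed lungs at 72 h, 1925 and 1952 in PBS lungs at 72 h, and 2387 and 2499 in PBS lungs at 24 h, a ratio of 0.794 between the PBS groups against 0.561 on the first version. Krt7 read 4483 and 4157 in ragweed lungs at 72 h, 6670 and 5669 in PBS lungs at 72 h, and 7051 and 6528 in PBS lungs at 24 h. Here the PBS groups overlapped (0.906-fold, against 0.592-fold on the first version), and ragweed at 72 h was 0.702-fold of PBS at 72 h.

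**Figure D4:**
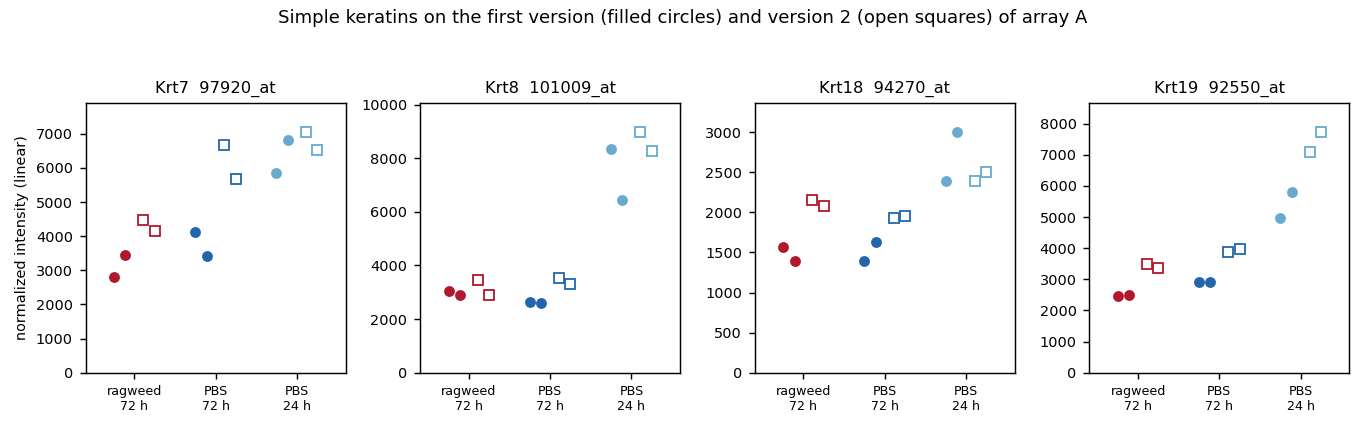
Normalized linear intensity (vertical axis, from 0) of the 4 simple keratins on the first version (filled circles) and version 2 (open squares) of array A in ragweed 72 h, PBS 72 h and PBS 24 h lungs, 2 samples each. Krt8 and Krt19 are highest in PBS lungs at 24 h on both versions, while Krt7 in PBS lungs at 72 h is near its PBS 24 h level on version 2 only (6670 and 5669 against 7051 and 6528).

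Some genes of squamous differentiation were also higher in PBS lungs at 72 h than at 24 h. The list of 27 genes of squamous differentiation and basal cells, which was chosen with results of these data known and so is not independent evidence, had 20 tested. In PBS lungs at 72 h against 24 h, 5 of the 20 were called higher and none lower, where 0.186% of all probe sets were called higher and 0.095% lower. Called or not, 14 of the 20 lay above 0 and 6 below, with a median of 0.70 against 0 for all probe sets. The 5 were Lce3a, a cornified envelope protein (2.22 ± 0.32), Cysrt1, a cysteine-rich protein of the epidermis (at least 1.99), Crct1, which lies among the genes of epidermal differentiation (1.64 ± 0.17), Rptn, an envelope precursor (1.48 ± 0.21), and Krtdap, a secreted keratinocyte protein (1.37 ± 0.13). Klk10, a protease of epidermis, differed by at least 2.25 and was not called. Lce3a read 2815 and 1377 in ragweed lungs at 72 h, 2256 and 2094 in ragweed lungs at 24 h, 10290 and 11200 in PBS lungs at 72 h, and 2515 and 2114 in PBS lungs at 24 h, so that PBS at 72 h alone stood apart.

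In ragweed against PBS lungs at 72 h, 6 of the 20 were called lower and none higher, with a median of -0.49, where 0.194% of all probe sets were called lower and 0.333% higher. They were Lce3a, Cysrt1, Sbsn, Crct1, Krtdap and Cnfn. At 24 h, and between the ragweed groups, none of the 20 was called in either direction by limma, with medians of -0.04 and -0.06, and 0 and 4 of them had an unadjusted p under 0.05, as had 2190 and 2680 of all 25250 probe sets. Sprr1b, another envelope precursor, read 35950 and 24670 in ragweed lungs at 72 h, 41670 and 28230 in ragweed lungs at 24 h, 35950 and 41670 in PBS lungs at 72 h, and 40260 and 41670 in PBS lungs at 24 h, and did not share the pattern. Trp63, the transcription factor of basal cells, overlapped between the PBS groups.

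The list of 22 simple epithelium genes, with 17 tested, had no gene called by limma in any of the 4 comparisons, and between 1 and 5 of the 17 had an unadjusted p under 0.05, as had between 2107 and 2680 of all 25250 probe sets. Its median between the PBS groups was -0.32, with 10 of 17 lower at 72 h. Those that differed most were the claudins Cldn4 (-1.89 ± 0.37) and Cldn7 (-1.69 ± 0.34), which form tight junctions, St14, a membrane protease (-1.10 ± 0.30), and Lgals3, a galectin (-0.96 ± 0.16). Cldn4 read 391 and 636 in ragweed lungs at 72 h, 718 and 608 in ragweed lungs at 24 h, 291.6 (the floor) and 544 in PBS lungs at 72 h, and 1588 and 1369 in PBS lungs at 24 h, where both samples were the highest. Epcam and Cdh1, general epithelial adhesion molecules, differed between the PBS groups by -0.27 ± 0.31 and 0.07 ± 0.21.

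Of 20 desmosome and keratin linker genes, 16 were tested and none was called by limma in the 4 comparisons, with 6 at an unadjusted p under 0.05 between the PBS groups, as were 2107 of all 25250 probe sets, and 1 to 5 in the others, where 2190 to 2680 were. Perp, a desmosome protein of stratified epithelium, read 568 and 625 in ragweed lungs at 72 h, 592 and 526 in ragweed lungs at 24 h, 1150 and 1109 in PBS lungs at 72 h, and 441 and 591 in PBS lungs at 24 h. Dsc1, a desmosomal cadherin, was above the floor in PBS lungs at 72 h alone (623 and 609). Itgb4, the hemidesmosome integrin, read at most 636.4 in ragweed lungs at 72 h, 423.4 in ragweed lungs at 24 h and 561.5 in PBS lungs at 72 h, against 1037 and 757 in PBS lungs at 24 h. Dsp and Jup, which link keratins to desmosomes in all epithelia, differed between the PBS groups by -0.04 ± 0.24 and 0.08 ± 0.25.

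The other keratins gave no call either: of 36 other keratin genes on the arrays, 28 were tested, with 0 called by limma and 3 to 7 at an unadjusted p under 0.05 in the 4 comparisons, against 2107 to 2680 of all 25250 probe sets. Their median was 0.05 between the PBS groups, -0.11 in ragweed against PBS at 72 h and 0.32 at 24 h. Krt77, an epidermal type II keratin, was above the floor in PBS lungs at 72 h alone (754 and 604), and Krt72, a hair follicle keratin, differed between the PBS groups by 0.90 ± 0.27. Krt73 differed there by 0.74 ± 0.37, and Krt88 went the other way, at -0.81 ± 0.39. Krt6a, which is induced in injured epidermis, read 959 and 737 in ragweed lungs at 72 h, 1463 and 1547 in ragweed lungs at 24 h, 894 and 674 in PBS lungs at 72 h, and 839 and 986 in PBS lungs at 24 h. Intermediate filaments of other cells had no call by limma among 10 tested of 13, and none with an unadjusted p under 0.05, in the 4 comparisons. Vim, the mesenchymal filament, differed by 0.13 ± 0.24 between the PBS groups. Its probe set gave little signal, however: it read at most 503.2, and ragweed lungs at 72 h were at the floor of 291.6.

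**Figure D5:**
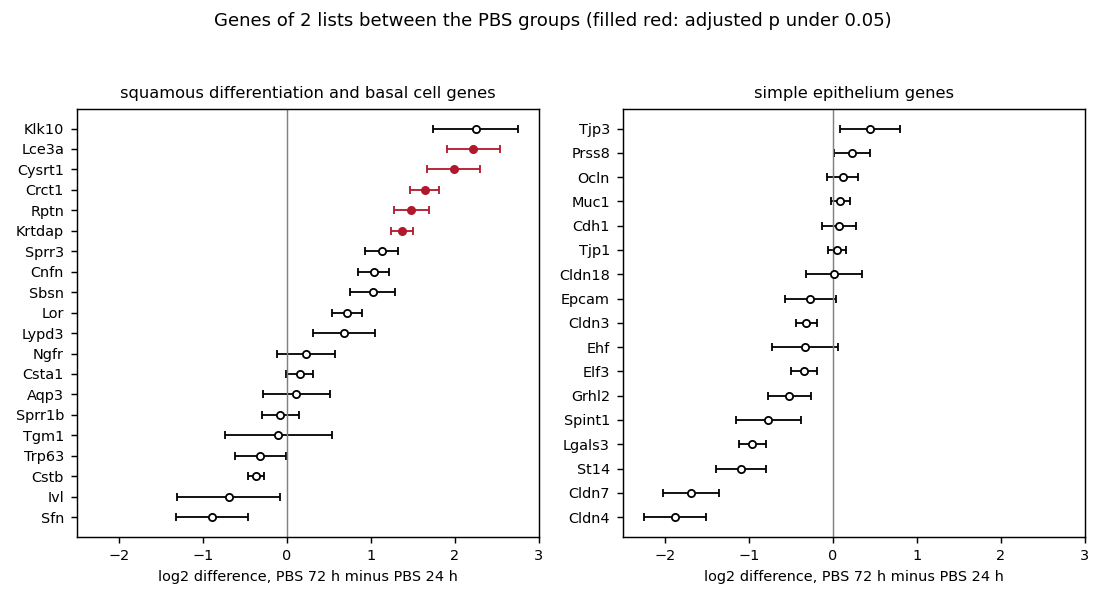
Log2 difference between PBS lungs at 72 h and PBS lungs at 24 h (horizontal axis, points) with standard errors (bars) for the tested genes of the squamous list (left, 20 genes) and of the simple epithelium list (right, 17 genes); filled red points were called. The 5 called genes, from Krtdap at 1.37 to Lce3a at 2.22, are all in the squamous list, and Cldn7 (-1.69) and Cldn4 (-1.89) lie lowest in the simple list.

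Genes whose log2 intensity was most like that of Krt4 over the 8 samples, among 11418 probe sets above the floor in all of them, were Nr1d1, a nuclear receptor of the circadian clock (r = 0.98), Fhl1, a LIM protein of muscle (0.97), Hadhb, an enzyme of mitochondrial fat oxidation (0.97), Ada, adenosine deaminase (0.96), and Lce3a (0.96). Ada read 2397 and 2319 in ragweed lungs at 72 h, 2197 and 1722 in ragweed lungs at 24 h, 5088 and 5122 in PBS lungs at 72 h, and 1788 and 1444 in PBS lungs at 24 h. Those most like Krt19 were Txnrd1, thioredoxin reductase (0.99), Sqstm1, an autophagy receptor (0.98), Rab32, a small GTPase (0.97), Septin11, a cytoskeletal GTPase (0.97), and Anxa3, an annexin (0.97). Txnrd1 read 1230 and 1193 in ragweed lungs at 72 h, 1316 and 1375 in ragweed lungs at 24 h, 1367 and 1392 in PBS lungs at 72 h, and 1923 and 2043 in PBS lungs at 24 h. Likeness over 4 groups of 2 samples is a description, and says nothing of shared control.

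Some markers of other cell types also differed between the PBS groups. In RNA of the whole tissue fewer cells of a type and less RNA per cell cannot be told apart. The summed intensity of the 6 tested squamous lining markers other than Krt4 and Krt13 was 11301 and 8003 in ragweed lungs at 72 h, 8545 and 8584 in ragweed lungs at 24 h, 23660 and 25160 in PBS lungs at 72 h, and 9879.5 and 8429.7 in PBS lungs at 24 h. Of these, 2 of the 6 were called higher between the PBS groups, where 0.186% of all probe sets were, and Sprr1a was not tested. Cardiac muscle markers, 7 of 8 tested, summed to 9862 and 9909.9 in ragweed lungs at 72 h, 8287 and 9354.5 in ragweed lungs at 24 h, 16535 and 17812 in PBS lungs at 72 h, and 10916 and 10357 in PBS lungs at 24 h. Skeletal muscle markers, 7 of 8 tested, summed to 13834 and 12079 in ragweed lungs at 72 h, 15302 and 15880 in ragweed lungs at 24 h, 19154 and 20024 in PBS lungs at 72 h, and 10120 and 7441 in PBS lungs at 24 h. Between the PBS groups 0 of the 7 cardiac markers were called by limma. At an unadjusted p under 0.05 by limma there were 5, as were 2107 of all 25250 probe sets. Of the 7 skeletal ones, 1 (Acta1) was called higher, where 0.186% of all probe sets were. Myh4 and Myl2 were above the floor on fewer than 2 arrays and so not tested, and Sln was at the floor in PBS lungs at 72 h. Fat markers, 5 of 8 tested, summed to 4170.7 and 5024.5 in ragweed lungs at 72 h, 3093.8 and 4044.5 in ragweed lungs at 24 h, 5045.5 and 5401.4 in PBS lungs at 72 h, and 3372.4 and 2794.1 in PBS lungs at 24 h. Ucp1, the uncoupling protein of brown fat, was the 1 fat marker called between the PBS groups. It read 327.5 and 482.2 in ragweed lungs at 72 h, 1046 and 1057 in PBS lungs at 72 h, and was under the floor in both groups of 24 h, so that the PBS difference was at least 1.85. Adipoq, a hormone of fat cells, had a PBS 72 h level 2.83-fold that of PBS lungs at 24 h and was not called (adjusted p = 0.0513 by limma). The sum of the club cell markers, 6 of 7 tested, was lowest in PBS lungs at 24 h. It was 99816 and 98552 in ragweed lungs at 72 h and 101520 and 110170 at 24 h. In PBS lungs it was 121360 and 111510 at 72 h and 54390 and 58470 at 24 h. Most of each sum was Scgb1a1, at 80240 and 71310 in PBS lungs at 72 h and 30600 and 32320 at 24 h. Between the PBS groups 3 of the 6 were higher at 72 h, all called, and 3 were lower, none called. Of all probe sets 0.186% were called higher. Gsta3, 1 of the lower ones, read 381.3 and 587.7 in PBS lungs at 72 h and 641.8 and 853.9 at 24 h. Alveolar type I markers, 8 of 8 tested, were highest in PBS lungs at 24 h, with sums of 51778 and 50143 in ragweed lungs at 72 h, 60555 and 58710 in ragweed lungs at 24 h, 56823 and 55880 in PBS lungs at 72 h, and 69949 and 61616 in PBS lungs at 24 h. Between the PBS groups 7 of the 8 were lower at 72 h, with a median of -0.32, and none was called by limma. At an unadjusted p under 0.05 by limma there were 2 of the 8, against the same 2107 of all 25250 probe sets. The mesothelial markers other than Krt19, 5 of 8 tested, summed to 4728 and 5249.6 in ragweed lungs at 72 h, 7242 and 6268.5 in ragweed lungs at 24 h, 6633 and 6484 in PBS lungs at 72 h, and 8031 and 7669.8 in PBS lungs at 24 h. None of the 5 was called between the PBS groups or had an unadjusted p under 0.05 there by limma, and Wt1, Muc16 and C3 were not tested. The part of these cell types in the keratin values was not tested.

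RNA quality was read as the signal of the 3′ actin probe set over the 5′ one, and likewise for Gapdh. The actin ratio also set the PBS 72 h samples apart on version 2 A, at 0.189 and 0.198. It was 0.801 and 0.578 there in ragweed lungs at 72 h and 0.535 and 0.437 in PBS lungs at 24 h. On the first-version A arrays, which gave the main Krt4 and Krt13 values, the actin ratio was 0.798 and 0.968 in PBS lungs at 72 h. It was between 0.880 and 0.947 in the other 6 samples. The PBS 24 h samples, where the simple keratins were highest, had 0.947 and 0.914 on those arrays. On version 2 C, where the Krt4 probe set 167079_f_at was read, PBS lungs at 72 h had the lowest actin ratios. They were 1.11 and 1.39 in ragweed lungs at 72 h and 1.6 and 1.43 at 24 h. In PBS lungs they were 0.869 and 0.861 at 72 h and 1.08 and 0.993 at 24 h. On version 2 B, where Krt15 and the Krt13 probe set 164542_f_at were read, PBS lungs at 24 h had the lowest, with 1.1 and 0.831 in ragweed lungs at 72 h, 1.09 and 1.08 in ragweed lungs at 24 h, 0.919 and 0.813 in PBS lungs at 72 h, and 0.708 and 0.465 in PBS lungs at 24 h. The Gapdh ratio was also lowest in PBS lungs at 72 h on version 2 A, by a smaller margin than the actin ratio. On version 2 B and C it did not set the same groups apart as actin did. On version 2 A it was 0.824 and 0.751 in PBS lungs at 72 h, against 0.869 and 0.851 in ragweed lungs at 72 h. In PBS lungs at 24 h it was 0.988 and 0.857 there. On version 2 C it was lowest in ragweed lungs at 72 h (0.811 and 0.777). On version 2 B it was 1.19 and 1.14 in PBS lungs at 24 h, against 0.817 and 1.05 in ragweed lungs at 72 h. The part of RNA quality in the keratin values was not tested. The first-version PBS arrays had been deposited unscaled, unlike the ragweed arrays, and on version 2 A all arrays had been scaled alike. The ratio of PBS 72 h to PBS 24 h there was 1.77 for Krt4 (100421_at), against 3.35 on the first version. For Krt13 (100109_s_at) it was 4.51, against 3.01. The part of scaling in the keratin values was not tested.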

How the data were processed

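Total RNA of mouse lung was measured on Affymetrix murine U74 arrays, 47 arrays in 6 tables. The deposited values are linear intensity, 1 per probe set and array, and the authors' software was not given in the sources used here. From the values, a 2% trimmed mean near 800 shows that version 2 arrays and the lettered ragweed arrays of the first version came scaled, while first-version PBS arrays had trimmed means from 80.6 to 376.5. An unlettered ragweed 24 h array equalled the 1a array divided by 2.63 at all 12654 probe sets and was counted as the same array, leaving 46.

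Control probe sets (66 per table) were removed. First-version A, restricted to probe sets also on version 2 A because version 2 A holds no ragweed 24 h arrays here, was brought to a trimmed mean of 800, then quantile normalized. Version 2 B and C kept the deposited intensity. Values were floored at the 40th percentile, and those exceeding it on 2 or more arrays were tested (6896 on A, 9190 on B, 9164 on C). limma 3.58.1 (R 4.3.3, lmFit and eBayes with a mean-variance trend, 4 residual degrees of freedom) fitted 1 mean per group over 8 samples in each table. p-values were adjusted by Benjamini-Hochberg over the 3 tables within each comparison. The functions were tested on simulated data. Where a whole group lay under the floor, a difference is a lower bound ("at least"), and its standard error may be too small, as floored values add no spread.

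The keratins, the gene lists and the markers were chosen with earlier results of these data known. The main probe set of a gene is its brightest tested one, A before B before C. Up to 4 genes of a list are named by the largest difference between the PBS groups, and the 5 most like Krt4 and Krt19 by Pearson's r. Genes called in a list and a few named for contrast (Sprr1b, Trp63, Ngfr, Epcam, Cdh1, Dsp, Jup, Krt6a) were added after their values were seen. Symbols came from the platform annotation, in which 20323 tested probe sets had 1 gene, 503 several and 4424 none. Promoters are from RefSeq, GRCm38.p6. The letters 1a and 1b did not pair samples across groups (correlation of deviations between -0.046 and 0.035).

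Alternatives tried were a floor at the 20th percentile, no floor, scaling without quantile normalization, quantile normalization of all 3 tables, no filter on low values, the other array version, the letter as a block, no mean-variance trend, adjustment within each table, other PBS references, other probe sets of a gene, and leaving out each sample.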

Additional observations from a re-analysis of the deposited data

Results flagged for a closer look

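The ragweed effect on Krt4 (100421_at) differed between the times by the interaction term of the limma fit: at 72 h minus 24 h it was -1.75 ± 0.19 on the log2 scale, 1 of 9 probe sets called for this term. The same term was -1.18 ± 0.28 for the Krt4 probe set 167079_f_at, which was not called. Ragweed samples of Krt4 read between 8073 and 9924 at both times, against 24100 and 25340 in PBS lungs at 72 h and 8121 and 6703 in PBS lungs at 24 h. No Krt4 value exists for this term on version 2 A, where ragweed at 24 h was not analysed here.

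The Krt13 probe set 164542_f_at (version 2 B) gave -5.2 ± 0.49 for the same term, while the main Krt13 probe set gave -1.17 ± 0.19 and was not called. It read 1915 and 1485 in ragweed lungs at 24 h, where the main probe set was at its lowest (1096 and 999). In ragweed lungs at 72 h and PBS lungs at 24 h it lay under the floor. Deposited values were 315.9 and 281.1 in the first group and 159.6 and 252.7 in the second. Both groups enter the term with a plus sign and were raised to the floor. The fitted value of -5.2 is therefore a bound on 1 side, and the term without a floor could only lie below it. Which of the probe sets follows Krt13 in ragweed lungs at 24 h was not tested.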

How the results depend on the processing

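The limits on these results are 2 samples per group, a first-version A table whose PBS arrays were scaled here and not by the authors, and probe sets near the floor. Of all probe sets, the numbers called were 58 for ragweed against PBS at 24 h, 133 at 72 h, 71 for PBS 72 h against 24 h, 77 for ragweed 72 h against 24 h, and 9 for the difference of the ragweed effects. Counts in this order that moved by over 1.5 times were as follows. A floor at the 20th percentile gave 42 for ragweed 72 h against 24 h, and no floor 18 for the difference of effects. Without a filter on low values, 88 were called at 72 h, 44 between the PBS groups and 48 between the ragweed groups. On the other array version 4 were called at 24 h, 85 at 72 h and 41 between the PBS groups, with 0 between the ragweed groups and 0 for the difference of effects, where the A table had no ragweed 24 h arrays to add. Without the mean-variance trend, 80 were called at 72 h, 32 between the PBS groups, 43 between the ragweed groups and 4 for the difference. Adjustment within each table gave 91 at 24 h, 127 between the ragweed groups and 23 for the difference. Leaving out 1 sample gave 22 to 204 at 24 h, 2 to 59 at 72 h, 0 to 20 between the PBS groups, 0 to 200 between the ragweed groups and 0 to 5 for the difference. The letters did not pair the samples. With the letter as a replicate block, 58, 90, 59, 47 and 8 were called in the same order, and the call of Krt4 for the difference of effects ended, as it did with no filter and with no trend. The cause of these shifts was not tested.

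Of keratin values that had been called, those of Krt4, Krt13 and Krt19 changed sign against PBS of the other time: ragweed at 72 h gave 0.28 for Krt4 and 0.19 for Krt13, and ragweed at 24 h gave 0.03 for Krt19. The probe set 164542_f_at turned Krt13 to -2.24 between the ragweed groups and to 2.24 in ragweed against PBS at 24 h. Values that had not been called also turned. Against PBS of the other time, ragweed at 24 h gave -1.46 for Krt4, -0.28 for Krt15, 0.60 for Krt8 and 0.12 for Krt18, and ragweed at 72 h gave -1.31 for Krt8 and 0.35 for Krt15. Krt14 turned with the floor or with single samples left out, and other small uncalled values turned as well. No other keratin value that had been called changed sign under the floors, normalizations, array version, block or samples left out. Without a floor Krt7 and Krt8 were called lower with Krt19 in ragweed lungs at 24 h, and without the trend Krt19 was called neither there nor between the PBS groups.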

Other observations

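Nr1d1, the gene whose levels were most like those of Krt4, is a repressor of the circadian clock, and other clock genes were looked at after these values had been seen. Nr1d1 read 1664 and 1686 in ragweed lungs at 72 h, 1695 and 1879 in ragweed lungs at 24 h, 2792 and 2696 in PBS lungs at 72 h, and 1712 and 1564 in PBS lungs at 24 h. Per1, another repressor of the clock, was highest where the simple keratins were: it read 708 and 797 in ragweed lungs at 72 h, 789.6 and 834.5 in ragweed lungs at 24 h, 676 and 620.1 in PBS lungs at 72 h, and 1220 and 1293 in PBS lungs at 24 h. Cry1 read 790.1 and 818 in ragweed lungs at 72 h, 1096 and 1276 in ragweed lungs at 24 h, 787 and 818 in PBS lungs at 72 h, and 1193 and 1467 in PBS lungs at 24 h, which is higher at 24 h in both treatments. Other clock genes did not follow Nr1d1. Nr1d2, its close relative, overlapped between the PBS groups, with 973.6 and 1178 at 72 h and 1332 and 928.8 at 24 h. Per3 (651.7 and 793.5) and Ciart (1739 and 1580) were lowest in PBS lungs at 72 h. Arntl was at or near the floor in all 8 samples. No test was made on these genes, and their part in the keratin values was not tested.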
